A study of Mus musculus with 8 samples.

Results

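Of 28265 union peaks of RNA:DNA hybrid signal in mouse muscle stem cells (MuSCs), 780 lay in noncoding genes or pseudogenes and are described here. They were on autosomes, had a mean score over 30 in the 6 libraries, and were assigned to a gene that in the deposited peak table was of any type other than protein-coding. Their centre lay more than 1000 bp from the transcription start site (TSS) of that gene. The table gave 999 peaks a noncoding or pseudogene type, of which 984 were autosomal. Of these, 103 had a mean score at or below 30, and 101 of the remaining 881 lay within 1000 bp of the TSS. The 780 peaks fell in 555 genes, of which 454 carried 1 peak and 16 carried 5 or more. By gene type, 640 peaks were assigned to long noncoding RNA (lncRNA) genes, 124 to pseudogenes, 14 to loci still awaiting experimental proof as genes (TEC), and 2 to microRNA (miRNA) genes. In the GENCODE annotation, 2 of the 780 peaks overlapped a protein-coding gene and 723 had their centre inside the noncoding gene. The lowest mean score among the 780 peaks was 30.2 and the highest among those left out was 30, while the nearest distances to the TSS inside and outside the limit were 1003 and 980 bp.

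Hybrids were pulled down with the S9.6 antibody and their DNA was sequenced (DRIP-seq) in 3 control libraries (Ctrl, genotype Pax7CreERT/Suv4-20h1WT) and 3 knockout libraries (Kmt5b sKO, genotype Pax7CreERT/Suv4-20h1KO). Both genotypes carry the tamoxifen-dependent Cre recombinase under control of Pax7, so that recombination is limited to Pax7-expressing cells, and Kmt5b, also named Suv420h1, codes for an enzyme that dimethylates histone H4 (H4K20me2). Following the methods of the study, MuSCs of adult mice were purified magnetically from limb and trunk muscle and expanded in culture. The labels state neither the age nor the number of animals behind each library. The paper describes the DRIP-seq libraries as 3 biological replicates and gives 3 mice for its comparison of gained and lost peaks. The p-values rest on the spread between these libraries, taken from the trend over peaks of like score and not from each peak alone. The 1 input library of each genotype served the peak calling and has no values in the table used here. The Kmt5b gene itself, not among the 780 peaks, carried a peak with 412, 658 and 420 in Ctrl and 440, 449 and 484 in Kmt5b sKO (log2 fold change −0.08, limma adjusted p = 0.68), and hybrid signal is no test of the genotype.

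An R-loop forms when a nascent transcript pairs with its DNA template and displaces the other strand. Long noncoding RNAs are transcribed by RNA polymerase II much like messenger RNAs, yet many stay in the nucleus at their site of synthesis, and some act there on neighbouring genes, as do the imprinted lncRNAs Airn and Meg3. Pseudogenes are copies of genes that have lost the capacity to code for the protein. Unprocessed pseudogenes arose by duplication and keep introns, processed pseudogenes arose by reverse transcription of a messenger RNA, and only some of either kind are transcribed. For the CUT&RUN data of the study, to which the DRIP-seq processing was similar, the methods state that reads matching more than 1 place were dropped. The score of a pseudogene or a multicopy gene then covers only the sequence that sets it apart from other copies in the assembly.

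The central sequences of the peaks that mark the extremes are given here. The following 200 bases from the centre of a peak were read from the RefSeq GRCm38 (mm10) genome on the plus strand, 5′ to 3′, for the largest gain and the largest loss among lncRNA peaks, the largest gain among pseudogene peaks, and the highest score in both classes. Capitals mark runs of GGGG, or of CCCC, which is GGGG on the other strand. Runs of G on the displaced strand can fold into quadruplex structures.
4933406F09Rik, largest lncRNA gain, chr14:7429601-7429800: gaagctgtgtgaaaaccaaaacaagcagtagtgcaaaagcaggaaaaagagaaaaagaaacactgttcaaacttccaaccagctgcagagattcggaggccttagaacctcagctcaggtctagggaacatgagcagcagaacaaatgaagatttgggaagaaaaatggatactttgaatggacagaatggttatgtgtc
4833422C13Rik, largest lncRNA loss, chr13:91706501-91706700: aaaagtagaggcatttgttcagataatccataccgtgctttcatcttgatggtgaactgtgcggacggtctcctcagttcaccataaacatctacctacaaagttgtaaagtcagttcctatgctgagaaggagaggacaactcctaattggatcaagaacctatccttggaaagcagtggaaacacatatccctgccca
Gm4856, largest pseudogene gain, chr3:59520601-59520800: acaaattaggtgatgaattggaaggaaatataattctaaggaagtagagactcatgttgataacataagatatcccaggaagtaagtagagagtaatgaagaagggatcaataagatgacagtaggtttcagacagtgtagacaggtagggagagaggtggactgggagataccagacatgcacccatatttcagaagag
Gm26917, highest lncRNA score, chr17:39844401-39844600: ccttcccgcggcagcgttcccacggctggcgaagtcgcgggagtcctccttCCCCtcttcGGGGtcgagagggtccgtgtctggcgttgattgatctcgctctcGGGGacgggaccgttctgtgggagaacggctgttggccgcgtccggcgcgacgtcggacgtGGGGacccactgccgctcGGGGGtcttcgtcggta
Pisd-ps2, highest pseudogene score, chr17:3082501-3082700: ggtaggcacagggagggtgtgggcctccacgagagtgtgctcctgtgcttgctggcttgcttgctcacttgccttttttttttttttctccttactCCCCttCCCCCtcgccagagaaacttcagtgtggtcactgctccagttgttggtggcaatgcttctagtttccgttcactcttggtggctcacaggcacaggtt
The 3 stretches at the extremes of change held no such run, whereas those of Gm26917 and Pisd-ps2 held 5 and 2, with GC contents of 69% and 53.5%. These are single peaks, which do not stand for a class. Over the 780 peaks, 379 (48.6%) held GGGG on either strand in their central 200 bases, against 54.7% of all tested peaks.

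S9.6 signal over noncoding genes and pseudogenes was higher in Kmt5b sKO. The median score per peak was 41, 44 and 40 in the Ctrl libraries compared with 73.5, 76 and 74 in Kmt5b sKO, without overlap. Averaged over 3 libraries per genotype, the median was 41.7 ± 2.08 (SD) in Ctrl against 74.5 ± 1.32 (SD) in Kmt5b sKO. Their ratio was 1.79, compared with 1.38 over all tested peaks. Summed over the 780 peaks, the score was 69342, 81680 and 70705 in Ctrl and 105521, 110830 and 105747 in Kmt5b sKO (ratio 1.45). These peaks took 1.81%, 1.76% and 1.85% of the summed score of all tested peaks in the Ctrl libraries compared with 2.31%, 2.31% and 2.27% in Kmt5b sKO. This share does not depend on how libraries were scaled to each other. The 10 highest peaks carried 22% to 24.8% of the summed member score in each library. The libraries are of bulk cells, so a larger number of cells with a hybrid and more hybrid per cell cannot be told apart.

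Of the 780 peaks, 477 (61.2%) were higher in Kmt5b sKO and 2 (0.256%) were lower. A call required a limma adjusted p below 0.1 together with a change of more than 1.5-fold. The background over all 25815 tested peaks was 32.9% higher and 0.883% lower. All 3 Kmt5b sKO libraries lay above all 3 Ctrl libraries in 503 peaks (64.5%, background 41.5%), and all lay below in 9 (background 3.81%). The median log2 fold change was 0.80 with quartiles of 0.39 and 1.10, against 0.35 over all tested peaks, and 66 peaks had a negative value. Peaks in protein-coding gene bodies, over 1 kb from the TSS, were called higher in 22.7% of 20662 cases and their median log2 fold change was 0.25. Peaks without a gene in the table, called intergenic here, were called higher in 77.5% of 4058 cases with a median of 0.95. The noncoding and pseudogene peaks thus lay between the other two locations in both measures.

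lncRNA peaks accounted for most of the calls. They were higher in 408 of 640 cases (63.7%) and their median log2 fold change was 0.82, and both lower peaks were among them. Their median score was 40, 42 and 38 in Ctrl and 73, 74 and 73 in Kmt5b sKO. Pseudogene peaks were higher in 63 of 124 cases (50.8%) and lower in none, and their median log2 fold change was 0.69. Their median scores were 49, 51.5 and 52.5 in Ctrl and 73.5, 82.5 and 80 in Kmt5b sKO. TEC peaks were higher in 6 of 14 cases with a median of 0.60, and their library medians overlapped, since Ctrl replicate 2 stood at 67 and Kmt5b sKO replicate 2 at 66.5. Neither of the 2 miRNA gene peaks was called. Per kb of peak, the median score over both genotypes was 38.2 for lncRNA, 39.7 for pseudogene and 35.4 for TEC peaks, compared with 32.9 for coding gene bodies and 39.5 for intergenic peaks.

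**Figure D1:**
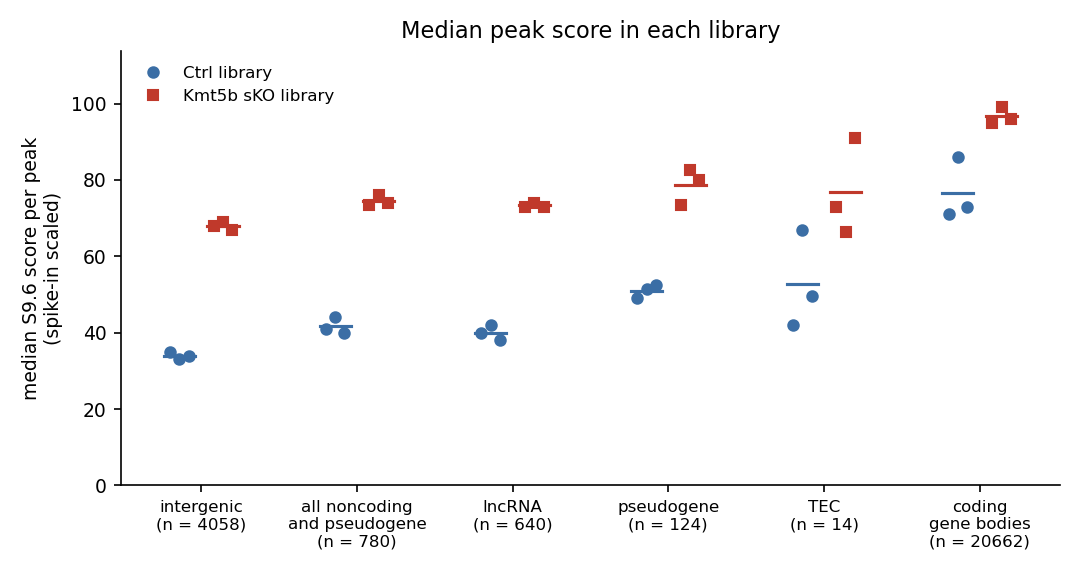
Median spike-in scaled S9.6 score per peak (y axis) for each class of peaks (x axis, with the number of peaks). Each point is 1 library and the horizontal bars are the means of 3 libraries. Kmt5b sKO libraries lay above Ctrl libraries in every class shown except TEC, where the medians of 67 and 66.5 overlapped.

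The scaling of the libraries bore on the size of the difference. After scaling all libraries to an equal total, the median log2 fold change of all tested peaks moved down by 0.20 and 362 of the 780 peaks were higher and 8 lower. After centring on the median peak the shift was −0.46, and 191 peaks rose while 38 fell (83.4% of calls higher, instead of 99.6%). Quantile normalization, with a shift of −0.36, gave 148 higher and 27 lower peaks (84.6% of calls higher). The median of the 780 peaks stayed positive under these scalings, at 0.60, 0.34 and 0.28, whereas that of all tested peaks was 0.15, −0.11 and −0.01. Higher calls were 46.4%, 24.5% and 19% of the noncoding and pseudogene peaks and 21.6%, 10.3% and 8.02% of all tested peaks. Relative to the median of all tested peaks, the 780 peaks lay 0.45 higher in the scores as deposited and 0.30 higher after quantile normalization. The first 2 scalings shift all log2 fold changes by nearly the same amount. The difference after either of them, again 0.45, was therefore set in advance.

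The minimum score bore on these counts, because a peak low in Ctrl could enter through Kmt5b sKO. In 217 of the 780 peaks the Ctrl mean was at or below 30, and 191 of these were called higher, while in 3 peaks the Kmt5b sKO mean was at or below 30. The 560 peaks with both means over 30 held 286 higher peaks (51.1%, median log2 fold change 0.61), against 26.1% of the 22401 tested peaks chosen in the same way. Without the minimum, 524 of 874 peaks (60%) were higher, against 33.5% of all 27837 autosomal peaks.

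The share of higher calls was lower among long than among short peaks in every location. Median length was 1600 bp among the 780 peaks, with a range of 400 to 38400 bp, and was 2800 bp in coding gene bodies and 1200 bp for intergenic peaks. Tested peaks were divided into 5 classes of about equal size by length. Among peaks of 200 to 1200 bp, 237 of 308 noncoding and pseudogene peaks (76.9%) were higher, against 57.0% in coding gene bodies and 81.4% of intergenic peaks. From 1400 to 2000 bp the shares were 71.2%, 35.7% and 82.5%, so that intergenic peaks did not fall at this step. In the class from 2200 to 3000 bp the shares were 50%, 20.4% and 66.9%. Among peaks of 6000 bp and longer, 4 of 58 noncoding and pseudogene peaks (6.90%) were higher, against 3.98% and 29.7%. The median log2 fold change of the noncoding and pseudogene peaks was 0.99 in the shortest and 0.15 in the longest class. These classes include peaks with a Ctrl mean at or below 30. Of such peaks, 191 of 217 noncoding and pseudogene, 1052 of 1430 coding gene-body and 1347 of 1559 intergenic peaks were called higher. Length was not examined among peaks with both means over 30, so the part of the score minimum in this gradient was not tested.

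**Figure D2:**
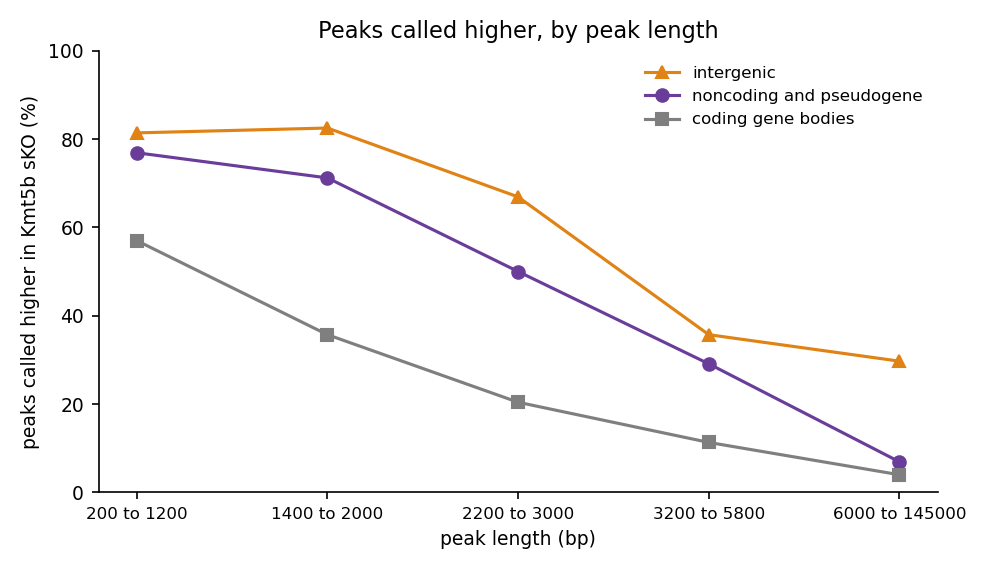
Share of peaks called higher in Kmt5b sKO (y axis, percent) in 5 classes of peak length (x axis, bp) for noncoding and pseudogene peaks, coding gene bodies and intergenic peaks. The noncoding and pseudogene peaks lay between the other locations in each class, from 76.9% in the shortest to 6.90% in the longest. Peaks with a Ctrl mean at or below 30 are included.

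Repeat content moved with length. Soft-masked (repeat) bases made up a median of 40.2% of a noncoding or pseudogene peak, 23.8% of a coding gene-body peak and 53.4% of an intergenic peak. Noncoding and pseudogene peaks with under 20% masked bases had a median length of 2600 bp and were higher in 51 of 138 cases (37.0%), whereas those with 60% or more had a median length of 1000 bp and were higher in 138 of 174 cases (79.3%). The corresponding shares were 10.9% and 61.5% in coding gene bodies and 42.1% and 85.1% in intergenic peaks. Across the 780 peaks, which share the same 6 libraries and are not independent, Spearman's rho of the log2 fold change was −0.48 with length, 0.35 with the masked share, −0.18 with GC content, 0.18 with distance to the TSS and −0.34 with the mean score. Length and mean score were themselves related (rho = 0.87), as the score is a sum over the peak. The part of repeats, length or the score minimum in the fold changes was not tested.

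**Figure D3:**
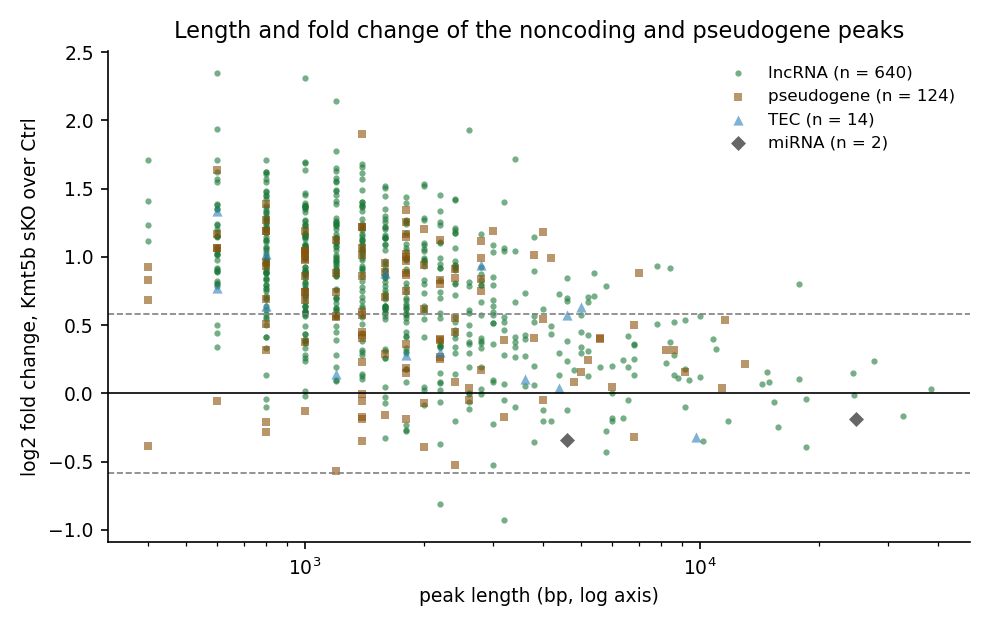
Length of each of the 780 peaks (x axis, bp, log scale) and its log2 fold change in Kmt5b sKO over Ctrl (y axis), by gene type. Dashed lines mark a fold change of 1.5 in either direction. Values spread upward at short lengths and close in on 0 at long lengths, with medians of 0.99 up to 1200 bp and 0.15 from 6000 bp on.

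Exonic and intronic peaks are described apart. The 244 peaks that overlapped an exon of their gene had a median length of 2400 bp and a median log2 fold change of 0.51, and 102 (41.8%) were higher. The 536 peaks without an exon, intronic or flanking, had a median length of 1400 bp and a median of 0.89, and 375 (70.0%) were higher. Both lower peaks overlapped exons. Among lncRNA peaks, GENCODE separates genes between coding genes (lincRNA), genes on the opposite strand of another gene (antisense), and processed transcripts. Higher calls made up 268 of 386 lincRNA peaks (69.4%, median log2 fold change 0.90), 73 of 117 antisense peaks (62.4%, median 0.81) and 54 of 114 processed transcript peaks (47.4%, median 0.59). The median lengths of the 3 groups were 1400, 1400 and 2000 bp. Bidirectional promoter lncRNAs had 7 of 16 peaks higher.

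The largest gains in lncRNA genes started from low scores. At 4933406F09Rik (ENSMUSG00000090585, chr14:7429400-7429999, intronic) the score was 9, 12 and 14 in Ctrl and 69, 53 and 67 in Kmt5b sKO. The log2 fold change was 2.35 (SE 0.45, limma adjusted p = 5.0e-06). Gm20754 (chr3:73503200-73504199), whose intronic peak consisted of repeat sequence for 85.7%, went from 9, 10 and 12 to 50, 74 and 45 (log2 fold change 2.31, adjusted p = 5.7e-05). The third was 2810404M03Rik (chr8:41928000-41929199), with 10, 13 and 14 in Ctrl and 38, 56 and 88 in Kmt5b sKO (2.14 on the log2 scale, adjusted p = 4.3e-05). All 3 peaks were short, from 600 to 1200 bp, and their Kmt5b sKO libraries spread more widely than their Ctrl libraries. The Ctrl means of 4933406F09Rik, Gm20754 and 2810404M03Rik were 11.7, 10.3 and 12.3. These lay below the minimum mean score, which the peaks passed only through Kmt5b sKO. The part of the minimum in these gains was not tested.

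Loss of signal was rare. In 4833422C13Rik (ENSMUSG00000074782, chr13:91705000-91708199, 1 exon overlapped) the score was 61, 103 and 67 in Ctrl and 37, 38 and 42 in Kmt5b sKO, without overlap, and fell by 0.93 on the log2 scale (SE 0.26, limma adjusted p = 0.0023). RefSeq also places part of Ssbp2, a gene for a single-stranded DNA-binding protein, within this peak. The other lower peak lay in Dleu2 (ENSMUSG00000097589, chr14:61643200-61645399), the host gene of miR-15a and miR-16-1. Its scores of 59, 68 and 41 in Ctrl and 41, 21 and 34 in Kmt5b sKO touched at 41, with a log2 fold change of −0.81 (SE 0.32, adjusted p = 0.030), and the call was lost without Ctrl replicate 1 (−0.76), Ctrl replicate 2 (−0.66) or Kmt5b sKO replicate 2 (−0.54). None of the other 4 Dleu2 peaks was called. The longest of them, of 24600 bp, had 853, 1025 and 886 in Ctrl and 908, 949 and 885 in Kmt5b sKO, which overlapped (−0.01).

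The highest score in an lncRNA gene was that of Gm26917 (ENSMUSG00000097971, chr17:39842600-39846399), where RefSeq places Rn18s-rs5, a ribosomal RNA related sequence. Ribosomal RNA genes exist in many near-identical copies. Keeping unique alignments leaves out reads that match several places of the assembly, but not reads of copies that the assembly lacks. Which copies this score covers was not tested. The score was 3272, 4724 and 3990 in Ctrl and 7460, 7686 and 6948 in Kmt5b sKO, with no overlap and a log2 fold change of 0.90 (SE 0.13, adjusted p = 2.4e-09), which was 0.44 and no longer called after centring on the median peak. Gm33838 and 2700054A10Rik, predicted genes named here after their values were seen, had the smallest adjusted p of the 780 peaks. Gm33838 (chr9:35304600-35305799) went from 619, 906 and 663 to 2101, 2037 and 1794 (log2 fold change 1.46, adjusted p = 1.5e-24) over 1200 bp. In 2700054A10Rik (chr17:13588600-13591799), with 64.5% masked sequence, the values were 540, 805 and 783 against 1828, 1998 and 1734 (1.41, adjusted p = 6.8e-23), and all 4 peaks of that gene were called higher. For lncRNA peaks as a class the median of the mean score was 54.2, at a median length of 1600 bp. The part of repeats or multiple copies in the high scores of Gm33838 and 2700054A10Rik was not tested.

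Imprinted lncRNAs, which are expressed from the maternal or the paternal allele only, differed from gene to gene. Of 10 such genes listed, 4 carried 9 of the 780 peaks, of which 2 were higher and none lower, and their median log2 fold change was 0.20. For comparison, 61.2% of the 780 peaks and 32.9% of all tested peaks were higher, and 0.256% and 0.883% were lower. The maternally expressed Meg3 (ENSMUSG00000021268) had its peak on an exon 19.9 kb from the TSS (chr12:109559200-109562599). The score was 55, 61 and 55 in Ctrl and 163, 206 and 204 in Kmt5b sKO, a log2 fold change of 1.72 (SE 0.20, adjusted p = 1.6e-15), with every Kmt5b sKO library far above every Ctrl library. Snhg14, the long paternal transcript that carries small nucleolar RNAs (snoRNAs) and runs antisense to Ube3a, had an intronic peak 648 kb from the TSS (chr7:59327200-59328399). It rose from 28, 26 and 25 to 57, 86 and 53 (log2 fold change 1.25, adjusted p = 0.00065), and the call was lost after quantile normalization.

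Airn, the paternal antisense transcript that silences Igf2r, carried 5 peaks, and none was called. Its longest peak (chr17:12811200-12829799, 18600 bp) had 718, 988 and 722 in Ctrl and 571, 639 and 621 in Kmt5b sKO. All Kmt5b sKO libraries were below the Ctrl libraries, but the log2 fold change of −0.39 (SE 0.14, adjusted p = 0.015) did not reach the fold change threshold, which it passed after scaling all libraries to an equal total (−0.60) and after centring (−0.85). The shortest Airn peak (chr17:12793000-12793999) had 39, 46 and 39 in Ctrl and 57, 51 and 53 in Kmt5b sKO (0.37, adjusted p = 0.31). H19, a maternal transcript abundant in fetal muscle that contains miR-675, had neighbouring peaks. The first in genome order (chr7:142574200-142575999) had 69, 80 and 59 against 110, 111 and 89 (0.57, adjusted p = 0.023, under a 1.5-fold change), and the next (chr7:142576200-142577999) had 74, 126 and 90 against 68, 91 and 84 (−0.23, adjusted p = 0.41), called lower after centring (−0.69) or quantile normalization (−0.64).

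Among widely studied lncRNAs, 4 of 17 listed genes carried 40 peaks, of which 21 were higher and none lower. Of these higher peaks, 13 lay in Pvt1 and 6 in Lncpint. Over the 780 peaks 61.2% were higher and 0.256% lower, and over all tested peaks 32.9% and 0.883%. The abundant nuclear transcripts Malat1 and Neat1 were covered by 1 and 3 exonic peaks, of which 2, both in Neat1, were higher. Malat1 (chr19:5795000-5803199), a component of nuclear speckles, had 1107, 1226 and 976 in Ctrl and 1332, 1297 and 1227 in Kmt5b sKO, so that the groups were separated by 1 unit (log2 fold change 0.23, adjusted p = 0.17, and −0.23 after centring). The highest-scoring peak of Neat1 (chr19:5839400-5845999), the scaffold of paraspeckles, had 490, 580 and 430 against 629, 674 and 694 (0.42, adjusted p = 0.010, and −0.04 after centring), without a call. Its other peaks, named after their values were seen, had 139, 190 and 131 against 300, 208 and 240 (chr19:5825600-5830199, 0.70, adjusted p = 0.00029) and 166, 191 and 166 against 347, 282 and 240 (chr19:5831200-5836599, 0.72, adjusted p = 0.00013). Both were without overlap, and both calls were lost without Kmt5b sKO replicate 1 (0.56 and 0.58) and under each of the 3 other scalings (0.24 to 0.53), the first also with the variance of its own libraries alone. Lncpint, a p53-regulated lncRNA, had 11 peaks, all with a positive log2 fold change and 6 called higher. The exonic peak with its highest score (chr6:31070600-31094999) had 2224, 2555 and 2121 in Ctrl and 2484, 2604 and 2531 in Kmt5b sKO (0.15, adjusted p = 0.39, and negative after scaling all libraries to an equal total or centring them). An intronic peak of Lncpint of 800 bp (chr6:31200800-31201599) had 18, 21 and 13 against 50, 34 and 71 (1.49, adjusted p = 0.0023).

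Pvt1, the lncRNA gene beside Myc, held the most peaks of any gene described here. Its 25 peaks spanned 9.01 to 297.4 kb from the TSS, and 13 were higher and none lower. Among the 780 peaks 61.2% were higher and 0.256% lower, and among all tested peaks 32.9% and 0.883%. Summed over the 25 peaks the score was 2403, 2617 and 2380 in Ctrl and 3339, 3421 and 3436 in Kmt5b sKO. Up to a length of 2000 bp, 8 of 9 peaks were higher (median log2 fold change 0.98), and over 2000 bp 5 of 16 were (median 0.41). Among the short higher peaks, those at 156.3, 238.9, 250.7 and 297.4 kb had Ctrl means of 28.3, 24.7, 19 and 17.3. These passed the minimum score of 30 only through Kmt5b sKO, and the part of the minimum in the length split was not tested. The most distal peak (chr15:62334800-62335999) had 19, 16 and 17 in Ctrl and 75, 42 and 57 in Kmt5b sKO (1.65, SE 0.39, adjusted p = 0.00028). The longest (chr15:62106600-62115799, 9200 bp) had 266, 309 and 257 against 285, 344 and 314, which overlapped (0.18, adjusted p = 0.36, and −0.28 after centring). The only negative value along the gene was −0.21 (adjusted p = 0.39), at 198.6 kb.

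**Figure D4:**
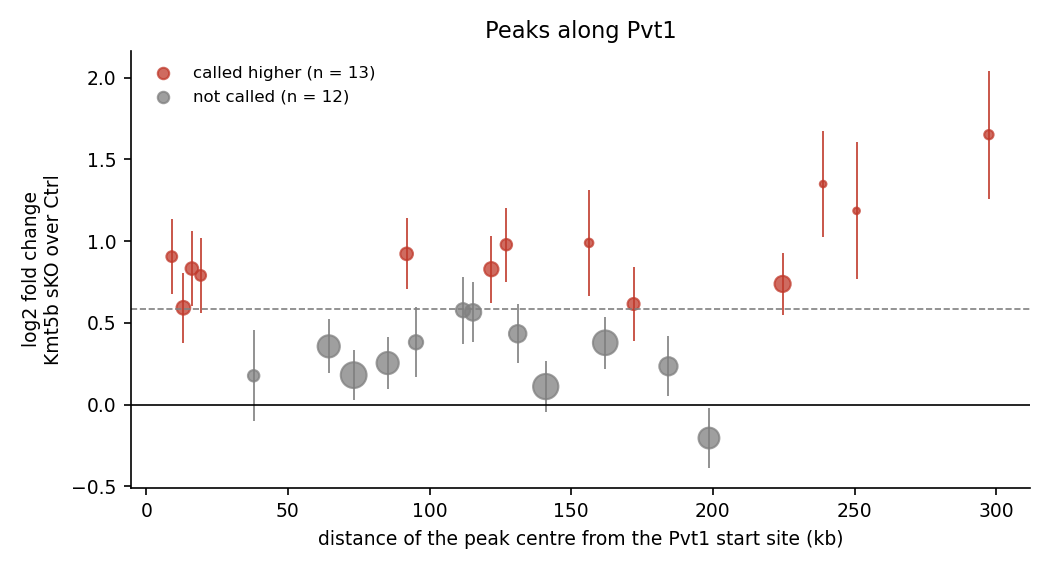
Log2 fold change in Kmt5b sKO over Ctrl (y axis) of the 25 Pvt1 peaks by distance from the start site (x axis, kb). Bars are standard errors, the dashed line is a fold change of 1.5, and the area of a point grows with peak length. Points from 225 kb on were called higher, and most large points between 64.4 and 199 kb were not.

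Several genes carried many peaks. The background of higher calls was 61.2% over the 780 peaks and 32.9% over all tested peaks. In 3110039I08Rik (ENSMUSG00000074415), which RefSeq names Mir100hg, a miRNA host gene, all 9 peaks were higher with log2 fold changes from 0.80 to 1.42, and the summed score was 860, 1192 and 1022 in Ctrl and 1826, 2022 and 1940 in Kmt5b sKO. All 5 peaks of Gm41335 were higher, with a median of 1.23. Gm14005 had 12 peaks with 1 higher (chr2:128314000-128315799, 36, 63 and 39 against 71, 103 and 83, log2 fold change 0.91) and a median of 0.36. In Gm49692, 5 of 9 peaks were higher and 1 value was negative. None of the 5 peaks of Gm4258 was called, and its longest (chr1:137899200-137931799) had 1548, 1935 and 1465 in Ctrl and 1373, 1440 and 1575 in Kmt5b sKO (−0.17). Gm4258, Gm14005, Gm49692, Gm41335 and 3110039I08Rik were taken from the 16 genes with 5 or more peaks after their values were seen.

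RefSeq placed 12 miRNA hairpins inside 9 of the 780 peaks, in 9 genes. Of these peaks 1 was higher and none lower, and their median log2 fold change was 0.04. Their median length was 6600 bp, in the longest length class, where 6.9% of noncoding and pseudogene peaks and 4.27% of all tested peaks were higher. miRNA hairpins are cut from a longer primary transcript, and their mature strands repress messenger RNAs that match the seed, bases 2 to 8. The mature strands below, from RefSeq and in 5′ to 3′ direction, belong to the muscle miRNAs, to the let-7 family with its shared seed GAGGUAG, to the only peak called and to a member whose gene is itself a miRNA, and capitals mark the seed.
mmu-miR-206-3p: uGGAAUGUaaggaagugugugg
mmu-miR-133b-3p: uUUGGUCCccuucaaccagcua
mmu-let-7b-5p: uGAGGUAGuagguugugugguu
mmu-let-7c-5p: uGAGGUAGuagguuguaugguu
mmu-let-7d-5p: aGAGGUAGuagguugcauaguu
mmu-miR-125b-5p: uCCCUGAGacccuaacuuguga
mmu-miR-365-3p: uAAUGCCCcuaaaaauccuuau
The hairpins of miR-206 and miR-133b, miRNAs made in skeletal muscle, lay in 1 peak of 15800 bp in Gm28653 (chr1:20669800-20685599), which RefSeq names Lincmd1. Its score was 927, 1410 and 1071 in Ctrl and 843, 972 and 1017 in Kmt5b sKO, which overlapped (log2 fold change −0.25, SE 0.13, adjusted p = 0.13), and it was called lower after centring (−0.71). Lncppara, with the hairpins of let-7b and let-7c, had the longest of the 780 peaks (chr15:85671800-85710199, 38400 bp) and 2623, 3077 and 2380 against 2564, 2747 and 2936 (0.04, adjusted p = 0.86). The peak with let-7d, in 6720427I07Rik (chr13:48531400-48537199), had 379, 566 and 385 in Ctrl and 296, 344 and 332 in Kmt5b sKO. All its Kmt5b sKO libraries were lower, at a log2 fold change of −0.43 (SE 0.15, adjusted p = 0.014) that was short of the threshold. miR-125b lay in the exonic peak of 3110039I08Rik (chr9:41580000-41597799), the only called peak of the 9, with 491, 707 and 595 against 989, 1075 and 1033 (0.80, SE 0.14, adjusted p = 2.5e-07), which was 0.34 and not called after centring. Gm28653, Lncppara and 3110039I08Rik were named after their values were seen.

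The 2 peaks whose gene was itself a miRNA had negative values and were not called. The miRNA gene made up 0.452% of the Mir365-2 peak and 2.98% of the Gm24084 peak, so most of each peak lay outside it. Mir365-2 (chr11:79715600-79740399, 24800 bp) had 1145, 1541 and 1147 in Ctrl and 1032, 1143 and 1166 in Kmt5b sKO (log2 fold change −0.19, adjusted p = 0.27). Gm24084 (chr10:52028800-52033399) had 76, 146 and 130 against 83, 99 and 86 (−0.34, adjusted p = 0.17). Both were called lower after centring (−0.64 and −0.80), and Gm24084 also after quantile normalization (−0.71) and without Ctrl replicate 1 (−0.62). In both, the highest value was that of Ctrl replicate 2. The miRNA host gene Mir99ahg, the source of miR-99a, had 5 peaks with positive values, of which 1 was higher (chr16:77507800-77510199, 44, 64 and 58 against 74, 130 and 92, log2 fold change 0.80, adjusted p = 0.0023).

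snoRNA host genes carry in their introns snoRNAs, many but not all of which guide modification of ribosomal RNA. In 6 genes with a symbol of the Snhg series 1 peak each was found, and 2 were higher, Snhg14 (above) and Snhg15. Among all tested peaks 32.9% were higher, and among the 780 peaks 61.2%. Snhg15 (chr11:6523600-6526599) had 84, 74 and 83 in Ctrl and 117, 126 and 122 in Kmt5b sKO (log2 fold change 0.59, adjusted p = 0.012). Its call was lost with a pseudocount of 10 (0.55), without Ctrl replicate 2 (0.54) or Kmt5b sKO replicate 2 (0.57), and under each of the 3 other scalings (0.14 to 0.39). Snhg17, the highest of the group, had 445, 538 and 423 against 535, 491 and 494 (0.12, adjusted p = 0.54, and negative after scaling all libraries to an equal total or centring them). Snhg1 had 250, 252 and 221 against 343, 308 and 252, touching at 252 (0.31, adjusted p = 0.10). Snhg12 and Snhg20 had log2 fold changes of 0.29 and 0.26 with overlapping libraries. The host genes Zfas1 and Dancr, outside that series and added after their values were seen, had 94, 90 and 117 against 88, 119 and 99 (0.02, adjusted p = 0.94) and 74, 48 and 45 against 73, 56 and 84 (0.36, adjusted p = 0.24), with overlap and without a call, and both were negative after centring or quantile normalization.

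Genes on the opposite strand of a coding gene (symbols ending in os) formed another list. In 17 genes, 12 of 23 peaks were higher and none lower, and their median log2 fold change was 0.64. Higher calls made up 61.2% of the 780 peaks and 32.9% of all tested peaks, and lower calls 0.256% and 0.883%. None of the 23 peaks overlapped a protein-coding gene in GENCODE and 3 did so in RefSeq, and scores were not assigned to a strand. Hnf1aos1 (chr5:114988600-114991599), with 86.9% masked bases, rose from 185, 173 and 151 to 281, 246 and 268 (0.64, adjusted p = 0.00071), and the call was lost without Ctrl replicate 3 (0.56) and under each of the 3 other scalings (0.19 to 0.46). Both peaks of Tbx3os1 were higher, at 1.39 and 1.22. The other 4 genes with the highest-scoring peaks were not called at these peaks. Map2k3os had 305, 347 and 307 in Ctrl and 481, 384 and 405 in Kmt5b sKO (0.40, adjusted p = 0.022), Ino80dos had 112, 175 and 130 against 145, 180 and 199 (0.34), Brip1os had 218, 213 and 170 against 131, 195 and 175 (−0.27) and Cep83os had 129, 220 and 168 against 119, 185 and 149 (−0.18). After centring, Brip1os (−0.73) and Cep83os (−0.64) were called lower.

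The pseudogene types were present in small numbers. Higher calls made up 21 of 44 transcribed unprocessed, 15 of 27 unprocessed, 11 of 24 processed and 7 of 12 transcribed processed pseudogene peaks, with medians of 0.58, 0.75, 0.62 and 0.82. No peak of any pseudogene type was lower. Over the 780 peaks 61.2% were higher and 0.256% lower, and over all tested peaks 32.9% and 0.883%. Processed pseudogenes had peaks close to their start, at a median of 1.70 kb, and 79.2% of these peaks overlapped an exon. The pseudogene peak with the highest score was Pisd-ps2 (ENSMUSG00000023795, chr17:3080600-3084599), a copy of the gene for phosphatidylserine decarboxylase. It rose from 449, 576 and 527 to 1185, 1163 and 1169 (log2 fold change 1.19, SE 0.14, adjusted p = 1.4e-15), a gap far wider than the spread within either genotype.

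The 3 largest pseudogene gains were in unprocessed pseudogenes at low scores. Gm4856 (chr3:59520000-59521399) had 9, 11 and 16 in Ctrl and 49, 92 and 22 in Kmt5b sKO (log2 fold change 1.90, SE 0.51, adjusted p = 0.0013), and was not called with the variance of its own libraries alone. Gm6667 (chr10:3224000-3224599), 98.7% masked, had 10, 22 and 20 against 71, 35 and 61 (1.64, adjusted p = 0.00058). Gm26991 (chr14:6157000-6157799) had 26, 28 and 28 against 71, 63 and 87 (1.39, adjusted p = 5.2e-05). The Kmt5b sKO libraries ranged from 22 to 92 in Gm4856 and were closer in Gm26991. Ctrl means were 12 in Gm4856, 17.3 in Gm6667 and 27.3 in Gm26991. All were below the minimum mean score, which these peaks passed only through Kmt5b sKO, and its part in these gains was not tested. Gm16026 (chr1:85276200-85283199), named after its values were seen, was among the longer pseudogene peaks called, with 442, 517 and 607 against 1044, 950 and 884 (0.89, adjusted p = 1.3e-08, and 0.43 without a call after centring). RefSeq places parts of the protein-coding genes C130026I21Rik and Gm38510 within this peak.

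Pseudogenes named for a parent gene carried 14 peaks in 11 genes, of which 8 were higher and none lower, and their median log2 fold change was 0.71. The background was 61.2% higher and 0.256% lower over the 780 peaks, and 32.9% and 0.883% over all tested peaks. Sycp1-ps1 (chr7:18787000-18788999), a copy of the meiotic gene Sycp1, rose from 34, 32 and 59 to 99, 114 and 73 (1.21, adjusted p = 1.9e-05). Ppp4r1l-ps had 58, 64 and 63 against 84, 107 and 91 (0.59, adjusted p = 0.023), and its call was lost with a pseudocount of 10 (0.53), without Ctrl replicate 1 (0.55) or Kmt5b sKO replicate 2 (0.50), and under each of the 3 other scalings (0.14 to 0.39). Vmn2r-ps20, of the vomeronasal receptor family, had 282, 312 and 395 against 525, 453 and 416 (0.50, adjusted p = 0.0033), a change of under 1.5-fold, and passed this threshold without Ctrl replicate 3 (0.64). Nlrp5-ps had 94, 170 and 102 against 126, 184 and 163 (0.40, adjusted p = 0.069) and passed without Ctrl replicate 2 (0.66). No gene with the symbol of a ribosomal protein followed by ps was among the 780 peaks. Rpl37rt, a retrotransposed copy of the ribosomal protein gene Rpl37 that RefSeq holds to be protein-coding, had 2 peaks and was looked up after its values were seen. One (chr5:115106400-115108199) rose from 47, 33 and 36 to 70, 78 and 50 (0.75, adjusted p = 0.022), a call lost without Kmt5b sKO replicate 2 (0.62), with the variance of its own libraries alone and under each of the 3 other scalings (0.16 to 0.55). The other (chr5:115100600-115105799) had 183, 173 and 161 against 181, 222 and 212 (0.25, adjusted p = 0.25, and −0.21 after centring). Atp10d, a lipid flippase gene that is annotated as a polymorphic pseudogene because it is broken in some mouse strains, had the most pseudogene peaks. All its 6 values were positive and 1 peak was higher (chr5:72271000-72272599, 62, 85 and 76 against 114, 152 and 149, log2 fold change 0.89), while its highest-scoring peak had 133, 144 and 115 against 156, 216 and 152 (0.40, adjusted p = 0.059).

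2 clusters of neighbouring genes were singled out after their values were seen. The background of higher calls was 61.2% over the 780 peaks and 32.9% over all tested peaks. On chromosome 8, 19 pseudogene peaks in 6 genes lay within chr8:19683600-20581799, with 10 negative values, a median log2 fold change of −0.01 and a median length of 1400 bp. The only call there was Gm21811 (chr8:20143000-20143399), with 31, 28 and 21 in Ctrl and 51, 46 and 56 in Kmt5b sKO (0.92, adjusted p = 0.024). Its neighbour 6820431F20Rik had 5 peaks and no call, and the highest-scoring (chr8:20283800-20285799) had 96, 165 and 106 against 136, 99 and 108 (−0.07, and positive without Ctrl replicate 2 or Kmt5b sKO replicate 2). On chromosome 5, all 10 peaks within chr5:15461600-15691199 in the genes Gm43391, Gm21847 and Speer4cos were higher, with log2 fold changes from 1.23 to 1.93 and a median length of 900 bp. In Gm21847 all 8 peaks were higher, and its highest-scoring (chr5:15534800-15535599) had 51, 68 and 60 against 153, 173 and 158 (1.43, adjusted p = 3.0e-10). On chromosome 4, Gm13147 had 4 of 5 peaks higher and a median of 1.00. Genes of such clusters can be near-identical copies, and the part of reads lost to multiple matches was not tested.

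TEC loci, transcribed regions whose gene status awaits experiment, were higher in 6 of 14 cases, Gm37093, Gm37668, AC166360.1, Gm30238, Gm37004 and Gm47572. For comparison, 61.2% of the 780 peaks and 32.9% of all tested peaks were higher. Gm37093 (chr14:99781000-99781599) had the largest value, with 22, 19 and 19 in Ctrl and 68, 46 and 45 in Kmt5b sKO (log2 fold change 1.34, adjusted p = 0.0026). The only negative value was at Gm38309 (chr2:23485800-23495599), the longest TEC peak at 9800 bp, with 335, 413 and 298 against 280, 301 and 253 (−0.32, adjusted p = 0.086), and it was called lower after centring (−0.78).

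**Figure D5:**
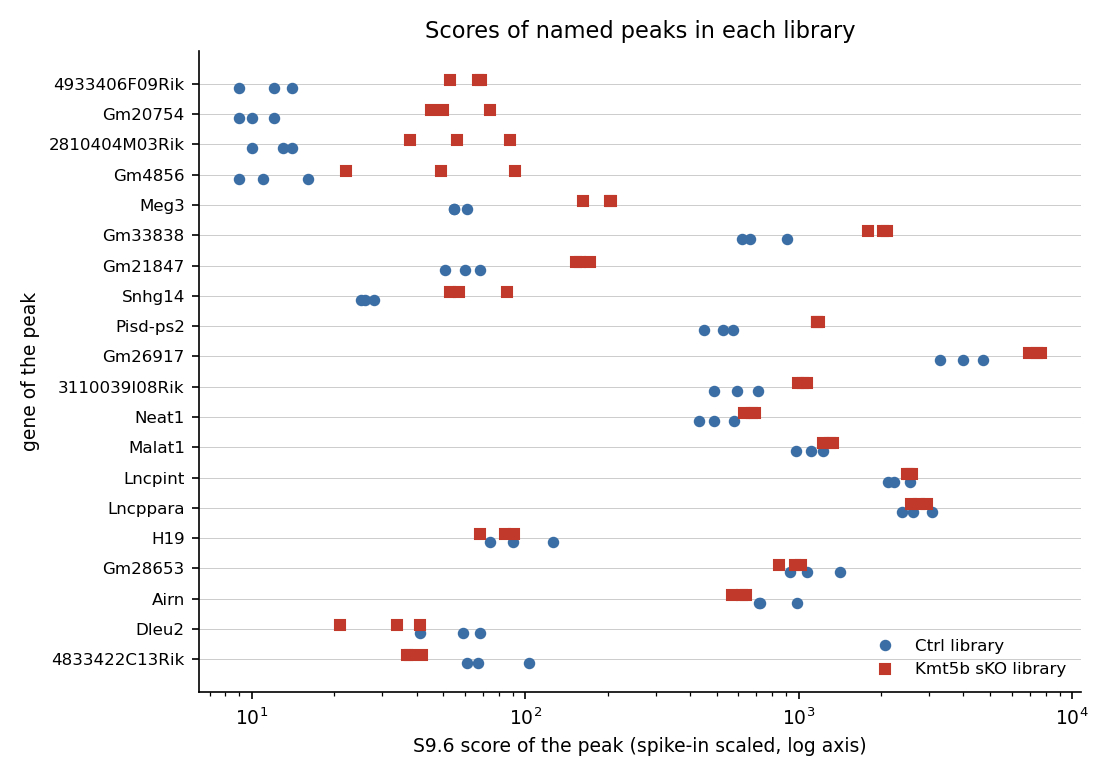
Spike-in scaled S9.6 score (x axis, log scale) of 20 named peaks in each Ctrl and Kmt5b sKO library, ordered by log2 fold change from 2.35 in 4933406F09Rik to −0.93 in 4833422C13Rik. Each point is 1 library, and scores are sums over peaks of different length, so levels of different genes cannot be compared. Libraries of the genotypes did not overlap at the low-scoring peaks at the top, where separation was a condition of naming, and overlapped from Lncpint to Gm28653.

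Tested peaks on marker genes of cell types were counted. Of 10 markers of MuSCs and myoblasts, 7 carried 22 tested peaks, namely Des, Itga7, Met, Myod1, Myog, Pax7 and Sdc4. Their summed score was 6342 to 7486 in Ctrl and 7246 to 7817 in Kmt5b sKO. Myf5, Cdh15 and Vcam1 had no tested peak. None of 4 immune markers and none of 4 fibroblast-like markers had a tested peak. Of 4 endothelial markers, Pecam1 and Tek carried 4 peaks, with a summed score of 153 to 177 in Ctrl and 270 to 308 in Kmt5b sKO, and their part in the results was not tested. R-loop signal is not a measure of expression, so these values check neither the identity nor the purity of the cells. Ctrl replicate 2 had the highest summed score of the Ctrl libraries over the 780 peaks.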

How the data were processed

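DRIP-seq with the S9.6 antibody was measured in 3 Ctrl and 3 Kmt5b sKO libraries, grouped by GEO's genotype labels. The authors aligned reads to mm10, with unique alignments kept in the CUT&RUN processing that their DRIP-seq processing followed (STAR 2.7.3a, with Trimmomatic 0.39, FastQC 0.11.8 and Picard 2.21.7 in the submitters' processing notes), called peaks against input with Epic2, dropped blacklisted regions, merged peaks over samples into union peaks on a 200 bp grid and annotated each with the gene of longest overlap from Ensembl. The deposited value is a score, the signal summed over a union peak and scaled by the authors to reads of a Drosophila spike-in, rounded to whole numbers. It is therefore no read count, count models were not used, and the depth behind each score is unknown. The distance to the TSS, another deposited column, is in base pairs (type other). Coordinates are printed as in the table, so that a start may lie 1 base before that of a genome browser.

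Autosomal peaks with a mean score over 30 (25815) were fitted with limma 3.58.1 in R 4.3.3 (lmFit, then eBayes with its trend option). The model had genotype as its term and log2(score + 1) as the response. Two-sided p-values were adjusted by Benjamini-Hochberg over all of these peaks, and the calls used an adjusted p below 0.1 with more than a 1.5-fold change. A fold change on this scale understates the change of low peaks. The prior degrees of freedom of limma were infinite, so the variance of a peak came from the trend with score. On simulated data, 178 of 200 peaks with a log2 change of 1.5 were recovered among 25815, with 22 unchanged peaks called, and with no change 0 were called. These data were drawn with independent normal noise of the variances fitted by limma, with changes in both directions. They held no shift common to a library, so they cannot check the calls where the real scores depart from that model.

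Gene names came from the table for 8 peaks and from GENCODE vM21 for 767, and 5 stayed without a name. Masked share, GC content and sequences came from RefSeq GRCm38.p6. Other software was pysam 0.24.0, pandas 2.3.3, numpy 2.4.6, matplotlib 3.10.9, scipy 1.17.1 and Python 3.11.15. Peaks were named by rule: per class of 20 or more, the highest mean score, and, where called with separated libraries, the 3 strongest gains and up to 2 strongest losses, the highest-scoring peak of genes in 7 lists (at most 5 per list), the gene with most peaks, and peaks behind small counts. Any other peak named was chosen after its values were seen. Members and lists were chosen with earlier results of these data known. The 18 alternatives were other pseudocounts, level filters, scalings, variances and thresholds, a replicate block, X and Y peaks, and each library left out.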

Additional observations from a re-analysis of the deposited data

Results flagged for a closer look

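Peaks of noncoding genes and pseudogenes on X and Y lay outside the comparisons, as the study left these chromosomes out. There were 14, of which 13 were on X and 1, Gm47283, on Y. Their mean score was 315.1, 304.3 and 282.6 in Ctrl and 391.5, 407.4 and 387.1 in Kmt5b sKO, a ratio of 1.31 without overlap, and drew attention as signal above control in data not otherwise used. Over 3 libraries the mean was 300.6 ± 16.6 (SD) for Ctrl against 395.3 ± 10.7 (SD) for Kmt5b sKO. The ratio was 1.45 for the summed score of the 780 autosomal peaks, also without overlap, and 1.38 for the median score of all tested peaks. With X and Y in the fit, 480 of 794 peaks were higher.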

How the results depend on the processing

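Calls of higher peaks were most sensitive to scaling and thresholds, and no alternative turned the median of the 780 peaks. The number of higher peaks, 477 as reported, was 55 among 168 peaks with a mean score over 100, 191 after centring, 148 after quantile normalization, 250 at a fold change over 2 and 314 with peak-wise variances. Over the same 5 settings lncRNA peaks gave 41, 170, 128, 218 and 267. Pseudogene peaks gave 12, 20 and 20 under the first 3 and 30 at a fold change over 2, and TEC peaks 2, 1 and 0 and 2, with 1 at a TSS distance over 5000 bp. The number of lower peaks, 2 as reported, was 0 at a mean score over 100 or a fold change over 2, 8 with equal library totals, 38 after centring, 27 after quantile normalization and 1 with peak-wise variances. The median log2 fold change of the 780 peaks was 0.69 with a pseudocount of 10, 0.60 with equal library totals, 0.34 after centring, 0.28 after quantile normalization and 0.38 at a mean score over 100.

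Leaving out each library in turn gave 410 to 475 higher peaks and 1 (without Ctrl replicate 2) to 5 (without Kmt5b sKO replicate 1) lower peaks, a median of 0.76 to 0.80, and 346 to 405 lncRNA, 59 to 63 pseudogene and 5 to 7 TEC peaks higher. Replicate numbers did not pair the samples, as the correlations of same-numbered deviations were −0.0094, 0.011 and −0.027. With the replicate block, 476 peaks were higher and 2 lower, and none of the 45 named peaks changed its call.

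Among named peaks that were not called, some changed sign. After centring, Ino80dos was at −0.12, Snhg17 at −0.34, Snhg12 at −0.17, Atp10d at −0.055, Lncpint at −0.31, Nlrp5-ps at −0.057, Map2k3os at −0.059, Snhg20 at −0.20, Pvt1 at −0.28, Lncppara at −0.42, Mir99ahg at −0.081, Malat1 at −0.23, Neat1 at −0.037 and Snhg1 at −0.15. With the same total per library, Snhg17 was at −0.086, Lncpint at −0.059, Pvt1 at −0.025 and Lncppara at −0.17. After quantile normalization, Snhg12 was at −0.059, Snhg20 at −0.32 and Lncppara at −0.015. With each library left out in turn, 6820431F20Rik ranged from −0.22 to 0.17 (positive without Ctrl replicate 2 or Kmt5b sKO replicate 2), Cep83os from −0.37 to 0.013 (positive without Ctrl replicate 2) and Lncppara from −0.05 to 0.14 (negative without Ctrl replicate 3 or Kmt5b sKO replicate 3). The cause of these changes was not tested.

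The peak table gives no reads behind a score, so counting error cannot be stated. The spike-in factors were not used here, and no library treated with RNase H, which removes hybrids, was analysed. Scores leave out reads that match several places where only unique alignments were kept.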

Other observations

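Noncoding and pseudogene peaks within 1000 bp of the TSS, left out of the 780, numbered 101 in as many genes. They were higher in 74 cases (73.3%) and lower in none, against 32.9% and 0.883% of all tested peaks. Their median length was 1600 bp and their median log2 fold change 0.96. Their median score was 40, 41 and 42 in Ctrl and 72, 74 and 76 in Kmt5b sKO. GGGG was present in the central bases of 63.4% of these peaks, and 93.1% overlapped an exon.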
